A study of Mus musculus with 20 samples.

Results

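The 10 genes Mat1a, Gnmt, Pemt, Ahcy, Bhmt, Cbs, Cth, Cdo1, Csad and Slc6a6 carry liver through sulfur amino acid and taurine metabolism. They were chosen by gene symbol from the 34933 named genes of the deposited tables. Csad was chosen from a readout of these mice, its small p-value between livers given rosuvastatin with GGOH and vehicle livers, and the other 9 were chosen as its known partners in the pathway. All 10 passed the low-count filter, which kept 12789 genes for testing. The lowest estimated count of any of them in any library was 125, for Slc6a6, and 489 for the other 9.

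Livers came from wild-type mice with diet-induced obesity that had received rosuvastatin with GGOH (the combination), rosuvastatin alone, GGOH alone or vehicle. Each of the 4 groups has 5 libraries, 20 in all, taken here as separate mice. Rosuvastatin is a statin, an inhibitor of HMG-CoA reductase in the mevalonate pathway, and GGOH (geranylgeraniol) is an isoprenoid alcohol that cells can turn into geranylgeranyl diphosphate, a product of that pathway. All groups, vehicle included, were obese, and the labels give no dose, duration, age, sex or batch. The p-values set a group difference against the spread between these libraries only. A difference in an item that the labels leave out cannot be told apart from one of treatment.

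In the methionine cycle, S-adenosylmethionine is made from methionine, gives its methyl group to an acceptor and becomes S-adenosylhomocysteine and then homocysteine. Homocysteine is either methylated back to methionine or condensed with serine and turned into cysteine, the transsulfuration route. Cysteine is oxidised and decarboxylated to taurine, which liver joins to bile acids and which cells also take up through a transporter.

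The estimated counts of a library summed to between 8548120 (combination mouse 3) and 18373913. Combination mouse 2, with 27.9%, and combination mouse 3, with 29.2%, had the largest share of mitochondrial transcripts, and no other library exceeded 17.1%. The hepatocyte marker Alb (albumin) had a median of 23696 TPM (transcripts scaled to a common total, with length taken into account by the authors), and all 6 hepatocyte markers were present in every library. The kidney markers, from a tissue with its own taurine synthesis, summed to at most 0.0235 TPM in any library, with 2 of the 3 at 0 throughout. In whole liver RNA, fewer cells of a type and less RNA per cell cannot be told apart.

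The 10 genes together took 0.801% ± 0.137 of all TPM (SD, n = 20), from 0.502% to 1.03%. Their levels spanned a wide range. Bhmt (mean 2544 TPM over the 20 libraries) and Gnmt (2294 TPM) were the most abundant, followed by Mat1a (976 TPM), Cdo1 (909 TPM), Ahcy (629 TPM), Pemt (264 TPM) and Cth (206 TPM). Csad (53.7 TPM), Cbs (40.8 TPM) and Slc6a6 (7.04 TPM) were the least abundant. Bhmt exceeded Gnmt in 11 of 20 mice and Mat1a exceeded Cdo1 in 12 of 20, so neither pair has a set order. Pemt exceeded Cth in 17 and Csad exceeded Cbs in 16 of 20 mice, and every other neighbour in the order was separated in all 20.

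Csad encodes cysteine sulfinic acid decarboxylase, the enzyme that turns the oxidation product of cysteine into hypotaurine, the precursor of taurine. It lies on chromosome 15 of GRCm38 from 102176999 to 102204724 on the minus strand, with 23 annotated transcripts, 12 of them coding. Csad had 30.2, 75.0, 68.6, 52.4 and 106 TPM in combination mice 1 to 5, with a mean of 66.4 ± 28.1 TPM (SD, n = 5). It had 42.0, 45.6, 83.4, 67.7 and 56.6 TPM in rosuvastatin mice (59.1 ± 16.9 TPM) and 61.3, 44.7, 52.6, 57.1 and 69.4 TPM in GGOH mice (57.0 ± 9.28 TPM). Vehicle mice had 44.3, 35.0, 29.6, 22.2 and 29.6 TPM (32.2 ± 8.18 TPM). Of the 5 mice of each treated group, 4 with the combination, 4 with rosuvastatin and 5 with GGOH lay above the highest vehicle mouse. For Pemt these counts were close to those of Csad, at 3, 4 and 4. The share of all genes with such counts was not computed, and the Csad counts use the mice behind its choice. Combination mouse 1 lay inside the vehicle range, and the combination group had the widest spread.

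The edgeR log2 fold change of Csad against vehicle was 0.95 ± 0.23 (SE) with the combination, 0.81 ± 0.23 with rosuvastatin and 0.84 ± 0.23 with GGOH. These 3 comparisons share the same 5 vehicle mice, so they are not separate observations, and the first is the one that led to the choice of Csad. They are given as a description without a test. When each library was left out in turn, the value against vehicle ran from 0.81 to 1.12 for the combination, from 0.72 to 0.94 for rosuvastatin and from 0.73 to 0.95 for GGOH. When 3 libraries were dropped at once (vehicle 1, combination 2 and combination 3, a choice made with the data in view), it was 0.81, 0.81 and 0.84 for the combination, rosuvastatin and GGOH. Between the treated groups the values were smaller than their errors, 0.14 ± 0.23 for the combination against rosuvastatin and 0.11 ± 0.23 for the combination against GGOH. Without combination mouse 5, the highest of all 20, these became -0.02 and -0.04.

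Rosuvastatin against GGOH is the comparison of Csad that uses neither group behind its choice. The log2 fold change was -0.03 ± 0.23, with a 95% interval from -0.51 to 0.45 and an adjusted p of 0.962 by edgeR with Benjamini-Hochberg adjustment over all genes. A p above the threshold does not show that the compounds act alike. Of all genes tested, 6.29% had an unadjusted p under 0.05 in this comparison, which was added after the data were seen.

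**Figure D1:**
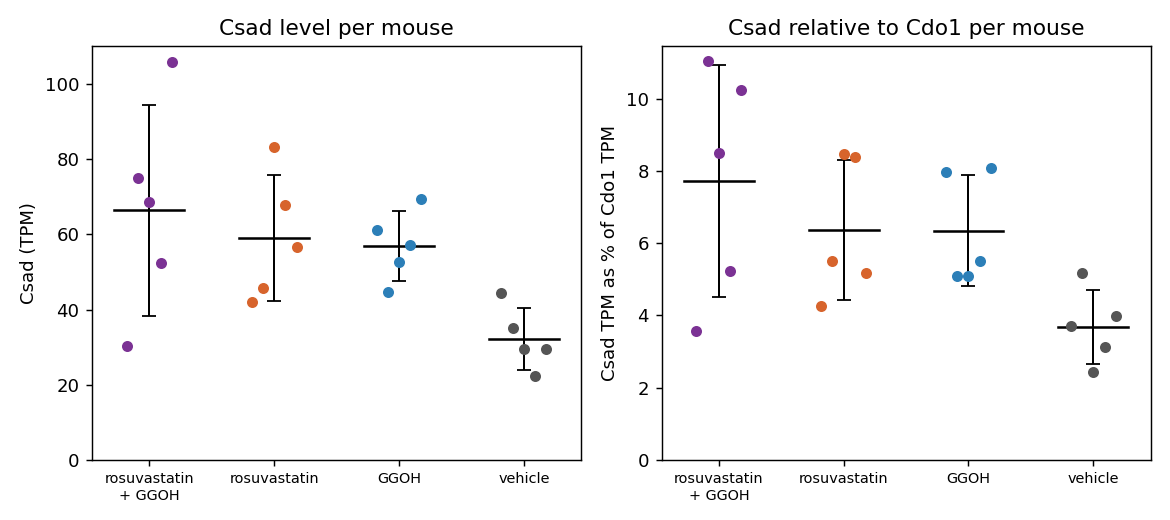
Csad per mouse in the 4 groups of 5 mice. Left, Csad level in TPM; right, Csad TPM as a percentage of Cdo1 TPM in the same library. Points are mice, horizontal lines are means and bars are SD. The 5 GGOH mice lie above the 5 vehicle mice on the left by a narrow margin, 44.7 TPM for the lowest GGOH mouse and 44.3 TPM for the highest vehicle mouse.

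In TPM, 1 of the 10 genes, Csad, had GGOH and vehicle mice that did not overlap, as had 0.79% of all genes tested in either direction. The vehicle mice are among those behind the choice of Csad. The count of 1 is therefore a description and cannot be read against that share. After TMM scaling the same groups touched, since the lowest GGOH mouse and the highest vehicle mouse both stood at 6.05 on the log2 CPM scale. In the other pairs of groups, 0 of the 10 genes were free of overlap. Over all genes tested the shares without overlap were 0.227% for the combination against vehicle, 0.344% for rosuvastatin against vehicle, 0.235% for the combination against rosuvastatin, 1.46% for the combination against GGOH and 0.907% for rosuvastatin against GGOH.

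Csad shares 4.63% of its transcript sequence, counted as 31-base words, with Zfp740 on the opposite strand, a gene with a median of 2.75 TPM. The strand setting of the counting is not given in the sources used here, so reads from that overlap cannot be assigned with certainty. RefSeq promoter windows (GRCm38.p6) were given for 6 of the 10 genes. The window of Csad is shown because the choice of genes rests on it, and those of Gnmt and Ahcy because these 2 genes varied together across libraries. They hold the 250 bases before the RefSeq start, less 15 bases for Csad and 3 for Gnmt that lie in annotated exons. The Csad window precedes a start inside the annotated gene, whose outer end on this strand is at 102204724. Those of Gnmt and Ahcy adjoin the ends of their annotated genes. A further Csad window, which overlaps exons of Zfp740, is not printed. Capitals mark matches on either strand to any of 5 motifs, and no matches overlap. The TATA box was searched as TATAAA, the CCAAT box as its name spells, the GC box as GGGCGG, the E-box as CACGTG and the nuclear receptor half-site as AGGTCA. All 3 genes read on the minus strand.
Csad, chr15:102189059-102189293: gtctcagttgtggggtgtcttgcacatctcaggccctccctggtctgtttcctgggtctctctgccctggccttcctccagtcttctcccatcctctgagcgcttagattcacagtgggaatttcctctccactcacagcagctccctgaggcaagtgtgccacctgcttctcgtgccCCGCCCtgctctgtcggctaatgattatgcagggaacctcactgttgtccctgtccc
Gnmt, chr17:46729169-46729415: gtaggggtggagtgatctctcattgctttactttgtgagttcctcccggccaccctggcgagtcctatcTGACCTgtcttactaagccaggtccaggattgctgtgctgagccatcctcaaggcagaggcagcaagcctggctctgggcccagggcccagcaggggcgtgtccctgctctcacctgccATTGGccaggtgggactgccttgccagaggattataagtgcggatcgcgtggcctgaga
Ahcy, chr2:155074498-155074747: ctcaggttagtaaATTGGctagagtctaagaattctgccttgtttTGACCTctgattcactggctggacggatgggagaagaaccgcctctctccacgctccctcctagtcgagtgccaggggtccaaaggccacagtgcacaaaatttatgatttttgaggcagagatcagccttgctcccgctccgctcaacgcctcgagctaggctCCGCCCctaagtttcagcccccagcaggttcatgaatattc
Csad held 1 GC box, 72 bases before its start. Gnmt held a CCAAT box at 62 and a half-site at 181 bases, and Ahcy a GC box at 41, a half-site at 205 and a CCAAT box at 237 bases before their starts. Among 32851 windows of 250 bases, 32.7% held a GC box, 33.8% a CCAAT box, 14% a half-site, 12.4% a TATA box and 6.02% an E-box. The matches describe these letters only.

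Cdo1, the cysteine dioxygenase that makes the substrate of Csad, lies on chromosome 18. It averaged 874 ± 146 TPM in combination mice, 939.5 ± 120 TPM in rosuvastatin mice, 915 ± 117 TPM in GGOH mice and 908 ± 273 TPM in vehicle mice (SD, n = 5 each). Its log2 fold changes against vehicle were between -0.15 and -0.02, each smaller than its SE. Set against Cdo1 in the same library, Csad stood at 7.72% ± 3.22 of the Cdo1 level in combination mice, 6.36% ± 1.94 in rosuvastatin mice, 6.35% ± 1.54 in GGOH mice and 3.69% ± 1.02 in vehicle mice. The Csad level lay far below that of Cdo1 in every group, and the ratio holds the Csad values that led to its choice.

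Slc6a6 encodes the sodium-dependent taurine transporter TauT and lies on chromosome 6 from 91684053 to 91759066. It had 6.07, 10.5, 11.3, 5.99 and 8.37 TPM in combination mice 1 to 5, and 5.04, 7.66, 9.40, 8.65 and 8.87 TPM in rosuvastatin mice. It had 2.92, 5.84, 4.70, 3.63 and 6.28 TPM in GGOH mice, and 17.8, 2.72, 9.33, 3.53 and 2.31 TPM in vehicle mice. The vehicle group held both the highest and the lowest of the 20 values, with mice 1 and 3 far above mice 2, 4 and 5. The combination and GGOH groups overlapped through the highest GGOH mouse, which lay above the 2 lowest combination mice.

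Slc6a6 was the 1 gene of the other 9 with an unadjusted p under 0.05 in any comparison. Between the combination and GGOH its log2 fold change was 0.81 ± 0.37, with an adjusted p of 0.350 by edgeR with Benjamini-Hochberg adjustment, so it did not pass the threshold. In that comparison 14% of all genes tested had an unadjusted p under 0.05, against 1 of these 9. The unadjusted p moved above 0.05 without GGOH mouse 1, 3 or 4 or without combination mouse 1, 2 or 3, with log2 fold changes between 0.67 and 0.84. With the same 3 libraries dropped the value was 0.42. Against vehicle, Slc6a6 in GGOH livers was at -0.58 ± 0.37 (adjusted p = 1.00 by edgeR), and at -0.10 without vehicle mouse 1. The other comparisons gave 0.64 ± 0.37 for rosuvastatin against GGOH, 0.23 ± 0.37 for the combination against vehicle and 0.06 ± 0.37 for rosuvastatin against vehicle.

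Cbs and Cth are the enzymes of transsulfuration: cystathionine beta-synthase joins homocysteine to serine, and cystathionine gamma-lyase splits the product to cysteine. Cbs, on chromosome 17 from 31608894 to 31637238, had 36.4, 48.1, 48.5, 30.3 and 52.0 TPM in combination mice and 37.2, 32.6, 71.6, 33.9 and 36.0 TPM in rosuvastatin mice. It had 31.8, 27.9, 25.1, 22.9 and 33.3 TPM in GGOH mice and 113, 20.5, 71.6, 24.3 and 18.8 TPM in vehicle mice. Vehicle mice 1 and 3 were the high mice here too, as for Slc6a6, and the remaining 3 vehicle mice were lower than all combination and rosuvastatin mice. The log2 fold change of Cbs in GGOH livers against vehicle was -0.47 ± 0.25 (adjusted p = 1.00 by edgeR), and -0.15 without vehicle mouse 1. Its unadjusted p passed 0.05 without vehicle mouse 2 or 5 or without GGOH mouse 1 (log2 fold change between -0.65 and -0.59).

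Cth, on chromosome 3 from 157894248 to 157925077, averaged 192 ± 58.6 TPM in combination mice, 215 ± 57.8 TPM in rosuvastatin mice, 211 ± 71.3 TPM in GGOH mice and 208 ± 48.7 TPM in vehicle mice (SD, n = 5 each). Its fold changes in the 9 contrasts were all smaller than their SE. Cbs relative to Cth ran from 8.99% to 79.4% within the vehicle group alone, so the ratio of the 2 transsulfuration messages varied more among vehicle mice than between group means, which lay between 14.9% in GGOH mice and 27.8% in vehicle mice.

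The methionine cycle genes were among the abundant ones, and their groups overlapped throughout. Mat1a, the liver form of methionine adenosyltransferase that makes S-adenosylmethionine, lies on chromosome 14 from 41105035 to 41124412. It averaged 941 ± 303 TPM in combination mice, 973 ± 188 TPM in rosuvastatin mice, 1038 ± 196 TPM in GGOH mice and 951 ± 376 TPM in vehicle mice (SD, n = 5 each). It exceeded Mat2a, the form of most other tissues, by 56.7 ± 16 times over the 20 libraries (SD), and by at least 30.1 times in each.

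Gnmt and Pemt use S-adenosylmethionine as methyl donor. Gnmt, glycine N-methyltransferase (chromosome 17 from 46725664 to 46729168), averaged 2284 ± 779 TPM in combination mice, 2347 ± 688 TPM in rosuvastatin mice, 2372 ± 402 TPM in GGOH mice and 2172 ± 235 TPM in vehicle mice (SD, n = 5 each). The vehicle mice were the tightest group, and all lay within the range of the combination mice. Pemt, which methylates phosphatidylethanolamine to phosphatidylcholine (chromosome 11 from 59970614 to 60046489), averaged 262 ± 62.4 TPM in combination mice, 296 ± 45.0 TPM in rosuvastatin mice, 266 ± 32.1 TPM in GGOH mice and 231 ± 22.6 TPM in vehicle mice. Its log2 fold change with rosuvastatin against vehicle was 0.13 ± 0.18 (adjusted p = 0.973 by edgeR). Over the other settings tried this value ran from -0.05 to 0.35, so its size and direction rest on the setting. In TPM, 4 of the 5 rosuvastatin mice lay above the highest vehicle mouse for Pemt, and the share of all genes with such a count was not computed. After TMM scaling this did not hold. On the log2 CPM scale vehicle mouse 5, at 8.20, lay above the highest rosuvastatin mouse, at 8.11.

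Ahcy and Bhmt act on the products. Ahcy, which splits S-adenosylhomocysteine to homocysteine (chromosome 2 from 155059310 to 155074497), averaged 605 ± 160 TPM in combination mice, 641 ± 100.9 TPM in rosuvastatin mice, 613 ± 60.5 TPM in GGOH mice and 657 ± 204 TPM in vehicle mice (SD, n = 5 each). Its log2 fold change with the combination against vehicle was -0.22 ± 0.23. Bhmt, which methylates homocysteine with betaine (chromosome 13 from 93616675 to 93637961), had 2046, 1567, 1811, 1944 and 2956 TPM in combination mice and 2127, 2158, 3756, 2875 and 2544 TPM in rosuvastatin mice. It had 3634, 2063, 3088, 3906 and 1609.9 TPM in GGOH mice and 2681, 3112, 2393, 2404 and 2215 TPM in vehicle mice. All but combination mouse 5 lay below the lowest vehicle mouse, yet the groups overlapped through that mouse.

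The log2 fold change of Bhmt was -0.51 ± 0.28 with the combination against vehicle (adjusted p = 0.817) and -0.56 ± 0.28 against GGOH (adjusted p = 0.361), both by edgeR. Against rosuvastatin it was -0.30 ± 0.28 with the combination, where Pemt was at -0.13 ± 0.18. For rosuvastatin against vehicle it was -0.21 ± 0.28 on counts, and 0.05 with limma on log2(TPM + 1), so its direction there rests on the scale. Ahcy shares 71.4% of its 31-base words with other gene models, chiefly Gm4737, and Bhmt 30.3%, chiefly with Gm5096. Those copies had medians of 0.00104 and 0.626 TPM, with up to 23.5 TPM for Gm4737 in a library. How many of their reads belong to Ahcy or Bhmt is uncertain, since kallisto divides shared reads by estimation.

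**Figure D2:**
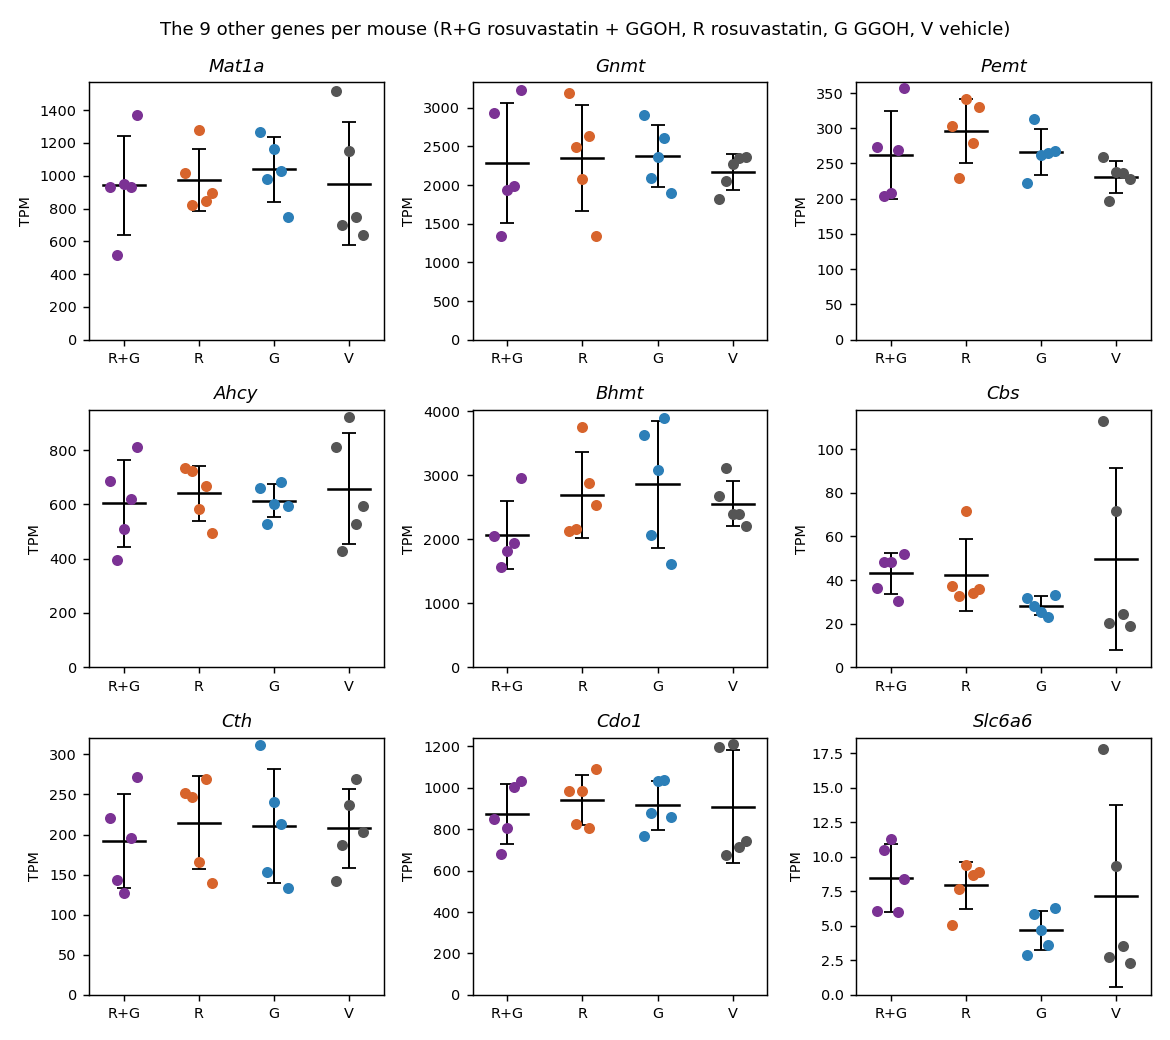
TPM per mouse of the 9 genes other than Csad, with each vertical axis starting at 0. Points are mice, horizontal lines are means and bars are SD, with 5 mice per group. In every panel the groups overlap, and the vehicle mice of Cbs and Slc6a6 split into 2 high and 3 low mice.

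By edgeR with Benjamini-Hochberg adjustment, 0 of the 9 genes other than Csad had an adjusted p under 0.05 in any of the 9 contrasts, and 0% of all genes tested did in 8 of them. The exception was GGOH averaged over rosuvastatin, where 0.00782% did, the 1 gene Cyp2b10, a cytochrome P450. At an unadjusted p under 0.05 the 9 genes gave 0 in each contrast except the combination against GGOH. The corresponding share of all genes was 5.5% for the combination against vehicle, 3.69% for rosuvastatin against vehicle, 2.86% for GGOH against vehicle and 1.69% for the combination against rosuvastatin. It was 14.4% for rosuvastatin averaged over GGOH, 1.7% for GGOH averaged over rosuvastatin and 2.89% for the interaction of the compounds. DESeq2 called 0 to 5 genes per contrast over all genes and none of these 9.

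Against vehicle, the median log2 fold change of the 9 genes was -0.15 with the combination, -0.11 with rosuvastatin and -0.02 with GGOH. The medians over all genes were 0.01 with the combination, -0.02 with rosuvastatin and -0.02 with GGOH. With the combination 8 of the 9 values were below 0, with rosuvastatin 7 and with GGOH 6. The 3 counts share the vehicle mice, and the genes vary together across libraries. Rosuvastatin averaged over GGOH gave 0.43 ± 0.26 for Slc6a6 and -0.38 ± 0.19 for Bhmt, and GGOH averaged over rosuvastatin gave -0.27 ± 0.18 for Cbs and -0.21 ± 0.26 for Slc6a6. Cbs was at 0.34 ± 0.25 for rosuvastatin against GGOH. The interaction, which asks whether the change with both compounds differs from the sum of the changes with each alone, was largest for Slc6a6 (0.74 ± 0.52) and Cbs (0.41 ± 0.35), neither past the threshold (adjusted p = 0.999 by edgeR for each). The Slc6a6 value turned to -0.10 with the same 3 libraries dropped. The interaction value of Csad was -0.70 ± 0.33, given as a description because it uses the groups behind the choice of Csad.

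**Figure D3:**
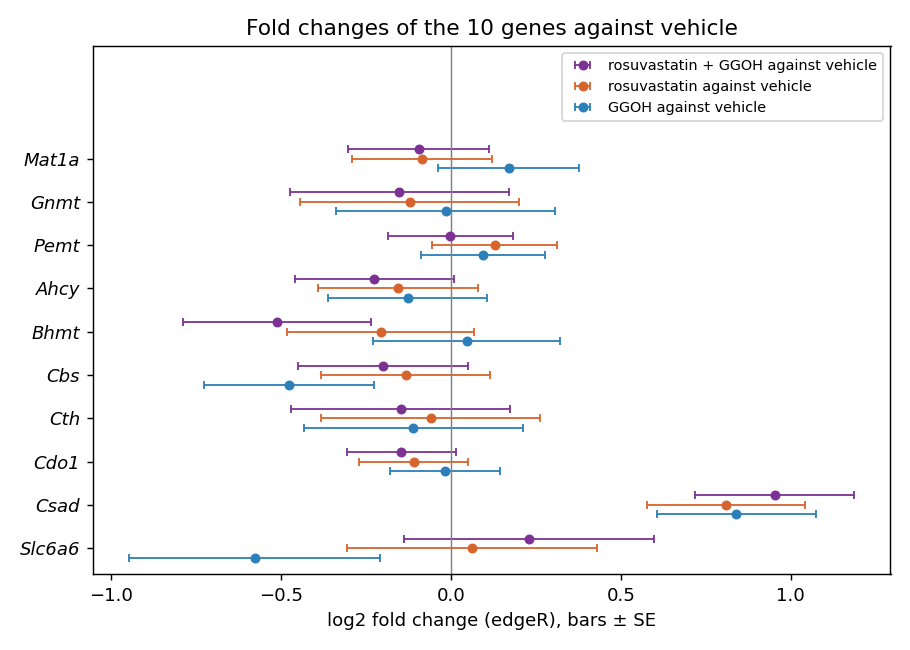
edgeR log2 fold changes of the 10 genes against vehicle for the combination, rosuvastatin and GGOH, with bars of 1 SE. The 3 Csad points lie between 0.81 and 0.95, and those of the other 9 genes between -0.58 and 0.23; the 3 comparisons share the 5 vehicle mice.

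Across the 20 libraries 7 of the genes varied together. For Mat1a, Gnmt, Pemt, Ahcy, Bhmt, Cth and Cdo1, the 21 pairs had Pearson correlations of log2 CPM between 0.40 and 0.93, with Gnmt and Cth at 0.93, Ahcy and Cth at 0.85 and Gnmt and Ahcy at 0.84. After subtracting group means the range was 0.34 to 0.94. Slc6a6 ran the other way from these 7, most with Bhmt (-0.83) and Gnmt (-0.67), and with Cbs it ran at 0.59. Csad had correlations between -0.42 and 0.07 with the other 9. The libraries share depth, composition and scaling, and these values are a description.

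The first principal component of all genes held 36.1% of the variance. Slc6a6 had a correlation of -0.96 with it, while the 8 genes other than Slc6a6 and Csad had correlations between 0.56 and 0.83 in size and Csad had -0.04. The median over all genes was 0.575 in size, and 36.3% of genes exceeded 0.7. The mitochondrial share of a library had correlations of -0.72 with Mat1a, 0.58 with Slc6a6 and 0.03 with Csad. The part of this shared axis in the values of Slc6a6 and Cbs between groups was not tested.

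**Figure D4:**
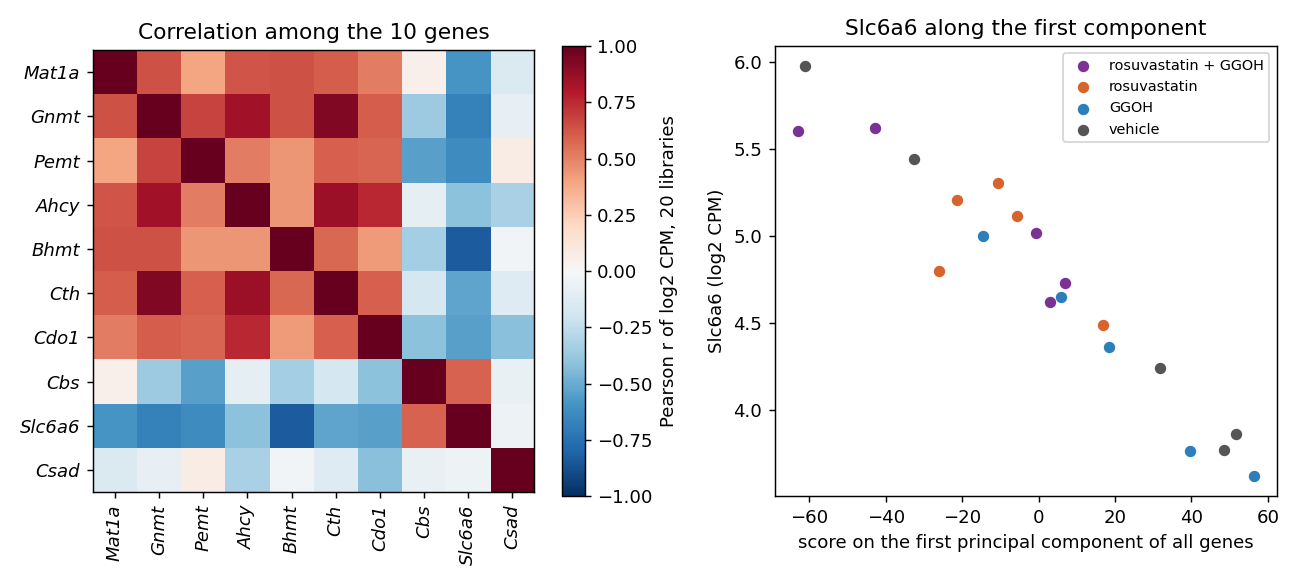
Left, Pearson correlation of log2 CPM between the 10 genes over 20 libraries. Right, Slc6a6 in log2 CPM against the score of each library on the first principal component of all genes, coloured by group. Slc6a6 is lower at higher scores (r = -0.96), and the vehicle mice lie at both ends of it.

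Markers of other cell types were set beside Slc6a6 and Csad. The 5 neutrophil markers summed to a median of 18 TPM in combination mice, 22.2 TPM in rosuvastatin mice, 36.0 TPM in GGOH mice and 27.8 TPM in vehicle mice. Over the 20 libraries their sum had a correlation of -0.71 with Slc6a6, and 3 of these 5 markers passed the low-count filter. The 6 markers of sinusoidal endothelium ranged from 83.2 to 129 TPM in sum, with a correlation of 0.68 with Slc6a6. The other marker sums had correlations with Slc6a6 from -0.20 (Kupffer cell) to 0.52 (pericentral hepatocyte). Slc6a6 had -0.96 with the first principal component of all genes, and the marker sums were not tested apart from that component. The 4 adipocyte markers, 1 of them at 0 in every library, summed to a median of 31.6 TPM in combination mice, 33.0 TPM in rosuvastatin mice, 28.7 TPM in GGOH mice and 12.1 TPM in vehicle mice, with a correlation of 0.32 with Csad. Their ranges were 14.3 to 46.4, 12.8 to 66.6, 15.7 to 44.0 and 7.77 to 45.7 TPM in the combination, rosuvastatin, GGOH and vehicle groups. Only 1 of the 4 adipocyte markers passed the low-count filter, so their sum is not a measure of adipocyte number. The sum of the 5 B cell markers averaged 11.4 ± 3.57 TPM in combination mice, 9.37 ± 3.23 TPM in rosuvastatin mice, 9.43 ± 1.82 TPM in GGOH mice and 7.17 ± 3.15 TPM in vehicle mice (SD, n = 5 each), with a correlation of 0.39 with Csad. Their ranges were 7.47 to 16.3, 6.76 to 14.8, 7.50 to 11.7 and 4.56 to 12.6 TPM in the combination, rosuvastatin, GGOH and vehicle groups. The part of these cells in the results was not tested. The hepatocyte markers had a correlation of -0.17 with Csad.

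The 5 genes whose log2 CPM was most like that of Csad over the 20 libraries, among 10207 named genes with a mean log2 CPM of at least 1, were Dgat1 (r = 0.64), Chka (0.64), Me1 (0.63), Map1lc3a (0.63) and Ccnd2 (0.62). They are the highest of 10207 values over 20 libraries, so they are a description, and no shared function was tested. After subtracting group means the 5 correlations lay between 0.33 and 0.44. The higher values thus also hold the group means of Csad, which include those behind its choice.

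Around the 10 genes, 90 others of the pathway and its branches were listed in 10 groups, and 86 passed the filter (not Ggt1, Gadl1, Slc7a11 or Phgdh). None had an adjusted p under 0.05 by edgeR in any contrast, and 0% to 10.5% had an unadjusted p under 0.05, as set out next. Between the combination and vehicle, 3 were higher and 6 lower at that level (5.5% of all genes). Between rosuvastatin and vehicle, 3 were higher and 3 lower (3.69% of all genes), and between GGOH and vehicle 2 were higher and 4 lower (2.86% of all genes).

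By fold change, some folate one-carbon enzymes, which supply methyl groups to the cycle, were among the lower genes with rosuvastatin. Mthfd1 was at -0.43 ± 0.17 with the combination against vehicle and -0.40 ± 0.17 with rosuvastatin against vehicle, and Shmt1 at -0.38 ± 0.15 in each of these comparisons. Medians in combination, rosuvastatin and vehicle mice were 26.5, 32.2 and 41.9 TPM for Mthfd1. Those of Shmt1 were not lower than vehicle, at 50.2, 53.5 and 50.1 TPM, and its vehicle mice ranged from 43.4 to 92.2 TPM. The mitochondrial folate enzyme Mthfd2 was at 1.28 ± 0.40 with rosuvastatin and 0.94 ± 0.41 with GGOH against vehicle, and at -1.47 ± 0.56 for the interaction. Without rosuvastatin mouse 3 the rosuvastatin value was 0.73 and the interaction -0.92. Over all the settings tried the rosuvastatin value of Mthfd2 ran from 0.37 to 1.53 and its interaction from -1.70 to -0.60. Its level was low, with medians of 1.88 TPM in rosuvastatin mice, 2.76 TPM in GGOH mice and 1.43 TPM in vehicle mice. Of the 14 genes of the folate and choline group the median log2 fold change was -0.18 with the combination and -0.18 with rosuvastatin against vehicle.

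Among the genes at a lower level with GGOH than with vehicle by this unadjusted measure were 2 that handle folate-bound carbon, Sardh (-0.46 ± 0.22) and Aldh1l1 (-0.42 ± 0.17). The medians did not lie that way. Aldh1l1 had a median of 91.8 TPM in GGOH mice and 86.4 TPM in vehicle mice. Sardh had a median of 110 TPM in GGOH mice and 99.9 TPM in vehicle mice, with ranges of 103 to 122 and 83.3 to 259 TPM in the GGOH and vehicle groups. The fold change of Sardh was -0.24 without vehicle mouse 1 and -0.04 with sample quality weights, which also took that of Aldh1l1 to -0.18. The bile salt export pump Abcb11 was at -0.40 ± 0.19 for GGOH against vehicle and 0.70 ± 0.26 for the interaction, and at -0.20 and 0.26 with quality weights. The amino acid transporter Slc36a1 was at -0.76 ± 0.35 for GGOH against vehicle, and at -0.41 without vehicle mouse 1. It was at 0.89 ± 0.35 for the combination against GGOH and 1.16 ± 0.50 for the interaction, which became 0.20 and 0.13 when vehicle 1, combination 2 and combination 3 were dropped together. Of the list genes 2 were higher and 1 lower at an unadjusted p under 0.05 for the interaction (2.89% of all genes).

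In the branch that uses taurine, Baat, the enzyme that joins taurine or glycine to bile acids, averaged 154 ± 35.8 TPM in combination mice, 165 ± 15.4 TPM in rosuvastatin mice, 225 ± 52.1 TPM in GGOH mice and 194 ± 30.2 TPM in vehicle mice (SD, n = 5 each). Its log2 fold change was -0.56 ± 0.26 for the combination against vehicle, -0.62 ± 0.26 for the combination against GGOH and -0.58 ± 0.26 for rosuvastatin against GGOH. Without vehicle mouse 2 the first of these was -0.37. Of the glutathione list, Chac2, an enzyme that breaks glutathione down, was at -0.70 ± 0.28 with the combination against vehicle, and Gclm, the modifier subunit of the ligase that starts glutathione synthesis from cysteine, was at -0.26 ± 0.12. The medians of Gclm did not lie that way, at 96.7 TPM in combination mice and 83.0 TPM in vehicle mice, which ranged from 74.8 to 203 TPM. Nr0b2, the bile acid responsive repressor SHP, was the 1 list gene with an unadjusted p under 0.05 between the combination and rosuvastatin, at 0.95 ± 0.38 (1.69% of all genes).

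In the choline and ethanolamine routes to phospholipid, which run beside Pemt, Pcyt2 was at 0.45 ± 0.18 with the combination and 0.46 ± 0.18 with rosuvastatin against vehicle, and Chka at 0.61 ± 0.24 with the combination and 0.51 ± 0.24 with GGOH. The GGOH value of Chka was 0.30 without GGOH mouse 1. Pcyt2 was at 0.39 ± 0.18 and Cept1 at -0.48 ± 0.19 for the combination against GGOH. For rosuvastatin against GGOH, Pcyt2 was at 0.40 ± 0.18, Etnk2 at 0.46 ± 0.22 and Cept1 at -0.42 ± 0.19. Between the combination and GGOH the named genes also included Fgfr4 (0.68 ± 0.27) and Mat2b (-0.49 ± 0.20), a regulatory subunit of methionine adenosyltransferase. In that comparison 4 list genes were higher and 3 lower at an unadjusted p under 0.05 by edgeR, 8.14% of those tested against 14% of all genes. For rosuvastatin against GGOH 2 were higher and 2 lower, 4.65% against 6.29% of all genes. Both shares of the list lay below those of all genes.

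Averaged over GGOH, rosuvastatin gave 2 higher and 7 lower list genes at an unadjusted p under 0.05 (14.4% of all genes). They included Pcyt2 (0.42 ± 0.13) on the higher side, and Baat (-0.57 ± 0.19), Cept1 (-0.40 ± 0.14), Shmt1 (-0.31 ± 0.11), Chac2 (-0.54 ± 0.20), Mthfd1 (-0.26 ± 0.12) and Mat2b (-0.31 ± 0.14) on the lower side. The lowest adjusted p among the list genes was 0.327 by edgeR. GGOH averaged over rosuvastatin gave 0 list genes at that level. Asns, asparagine synthetase of the amino acid stress response, was at 2.56 ± 1.16 with rosuvastatin against vehicle and -1.23 without rosuvastatin mouse 3, with medians of 0.19 TPM in rosuvastatin mice and 0.15 TPM in vehicle mice.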

How the data were processed

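Poly(A) RNA was sequenced from livers of 20 mice in 4 groups of 5. bcl2fastq 2.19, kallisto 0.44.0, DESeq2 and GRCm38 are named per the submitters' processing notes. The authors deposited estimated counts and TPM per gene in tables of 34934 entries. The 1 entry with no gene name, 0.00801% to 0.0157% of a library's counts, was left out. Per-sample columns of other series numbered 0.

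The members and gene lists were chosen with earlier results of these data known. Estimated counts, as deposited, were rounded and tested by edgeR 4.0.16 (quasi-likelihood F test, R 4.3.3) after TMM scaling and the default low-count filter by group, in a single model of group means for the 20 libraries. Benjamini-Hochberg adjustment ran over all 12789 genes, with a threshold of 0.05. The value after ± beside a fold change is its SE, computed from the F statistic, and 95% intervals use 21.0 degrees of freedom. The common biological coefficient of variation was 0.300. TPM values are those the authors deposited, without TMM scaling, so TPM and fold changes can differ in direction. Totals ran from 8548120 to 18373913 counts per library, and each SE also holds the spread between mice. The code was tested on simulated counts.

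Contrasts were the 5 pairs of the layout, the interaction, each compound averaged over the other and, added with the data in view, rosuvastatin against GGOH. All share mice. Named were all 10 members, in each contrast the members with an unadjusted p under 0.05 or else the 2 with the smallest p, up to 4 genes per list and contrast with an unadjusted p under 0.05, and the 5 genes most like Csad. Results of 2 list genes are not reported here. The alternatives tried were other size factors (RLE), DESeq2 1.42.0, filtering not at all or on a CPM of 1 in 5 libraries, fits of the compared groups alone, a block for replicate number, a robust spread estimate, limma 3.58.1 on log2(TPM + 1) or log2(TPM + 0.1), quality weights for samples and dropping each library in turn. A fit that drops 3 doubted libraries was added with the data in view. Gene positions came from GENCODE M21 and promoter windows from RefSeq (GRCm38.p6), with motif letters searched on both strands.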

Additional observations from a re-analysis of the deposited data

Results flagged for a closer look

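Cbs in rosuvastatin mouse 3 stood at 71.6 TPM, far from the other 4 rosuvastatin mice, which lay between 32.6 and 37.2 TPM. Its distance to the nearest of them took 0.883 of the range of the group, above Dixon's critical value of 0.71 for 5 samples. The 10 genes in 4 groups gave 40 groups to look at, of which 1 stood out and about 2 would by chance.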

How the results depend on the processing

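Over 31 settings, 2188 of 2209 recomputed values of the 72 named fold changes kept their direction and 21 reversed. Reversed for Csad were rosuvastatin against GGOH (0.020 with limma on log2(TPM + 1) and on log2(TPM + 0.1); -0.12 to 0.077 leaving out each library, above 0 without GGOH mouse 1 or 5 or rosuvastatin mouse 1, 2 or 5), the combination against rosuvastatin (-0.015 with sample quality weights; -0.020, without combination mouse 5, to 0.29) and the combination against GGOH (-0.019 with quality weights; -0.039, without combination mouse 5, to 0.28; -0.027 without vehicle 1 and combination 2 and 3). Bhmt for rosuvastatin against vehicle was 0.049 with limma on either TPM scale, and Asns ran from -1.23 without rosuvastatin mouse 3 to 3.66. Quality weights turned Pemt for rosuvastatin against vehicle to -0.051, Slc6a6 for GGOH against vehicle to 0.11 and its interaction to -0.27. Without vehicle mouse 1, Slc6a6 for GGOH averaged over rosuvastatin was 0.020 (lowest -0.31 without vehicle mouse 2), and without vehicle 1 and combination 2 and 3 its interaction was -0.095 and Pemt for the combination against rosuvastatin was 0.090. The cause was not tested.

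Genes past the threshold over all genes with DESeq2 were 2 for rosuvastatin against vehicle, 1 for the combination against rosuvastatin, 5 for the combination against vehicle, 4 for GGOH averaged over rosuvastatin and 2 for rosuvastatin against GGOH. Without the filter they were 1 for the combination against rosuvastatin and 1 against vehicle; with limma, 1 for the combination against vehicle on both TPM scales and 1 against rosuvastatin on log2(TPM + 1). With quality weights 1594 genes passed for rosuvastatin averaged over GGOH, among them Slc6a6 (0.72, adjusted p = 0.0284), Shmt1, Chac2, Baat, Pcyt2 and Cept1, and 3 for GGOH averaged over rosuvastatin. Leaving out single libraries gave 0 to 2 for GGOH averaged over rosuvastatin, and 0 to 1 for the combination against vehicle and against rosuvastatin. Without vehicle 1 and combination 2 and 3, GGOH averaged over rosuvastatin gave 0.

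Of the 9 genes other than Csad, those at an unadjusted p under 0.05 numbered 2 for the combination against GGOH and 1 for rosuvastatin averaged over GGOH with DESeq2. With limma on either TPM scale they were 0 for the combination against GGOH, 1 for rosuvastatin against vehicle and 1 for rosuvastatin averaged over GGOH. Quality weights gave 2 for the combination against vehicle, 1 for rosuvastatin against GGOH, 1 for rosuvastatin against vehicle and 3 for rosuvastatin averaged over GGOH, and the fit of only the groups compared gave 1 for rosuvastatin against GGOH. Without vehicle 1 and combination 2 and 3 there were 0 for the combination against GGOH and 1 for rosuvastatin against GGOH. Single left-out libraries gave 0 to 2 for the combination against GGOH, for GGOH against vehicle and for rosuvastatin averaged over GGOH, and 0 to 1 for the combination against vehicle, rosuvastatin against GGOH and GGOH averaged over rosuvastatin.

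The labels do not say whether the replicate numbers pair the mice. Same-numbered mice of different groups had a mean correlation of deviations of 0.0097 (13 of 30 pairs over 0.1). Different-numbered mice had -0.0019 (47 of 120 pairs over 0.1). These values show no shared deviation by number, but cannot decide whether mice were paired. With the replicate block, GGOH averaged over rosuvastatin had 0 genes past the threshold and the combination against GGOH had 0 of the 9 genes at an unadjusted p under 0.05.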
